A study of Mus musculus with 8 samples.

Results

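The vascular endothelial growth factor (VEGF) ligands and receptors comprise here the ligand genes Vegfa, Vegfb, Vegfc and Pgf, the receptor genes Flt1, Kdr and Flt4, and the co-receptor genes Nrp1 and Nrp2. Their members were every array probe whose accession maps to 1 of these 9 genes, which gave 12 probes of 39429 non-control probes on the array, and 9 genes of 20832 with a symbol. Vegfa, Kdr and Nrp2 had 2 probes each and the other genes 1 probe each, and all 12 probes passed the filter on dim signals. The study measured total RNA of mouse forebrain microvessels, enriched by homogenisation, sedimentation and a filtration that keeps particles under 70 µm. It set pups of postnatal day 5 (P5), pups of postnatal day 10 (P10) and adults side by side, with 2 replicates of each age and no treatment. RNA of 2 ages, labelled with the red dye Cy5 and the green dye Cy3, was hybridised together on each of 8 Agilent arrays. The 4 arrays of a replicate were P5 with adult, P10 with adult, P10 with adult with the dyes exchanged, and P5 with P10. P5 RNA was in Cy5 on every array that held it. The labels used here give no strain, sex, adult age or genotype, and do not say whether the replicates are separate animals or pools, so p-values measure only the spread between these samples.

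VEGF-A binds the receptor tyrosine kinases VEGFR1 (Flt1) and VEGFR2 (Kdr), and VEGFR2 carries most of its signal for endothelial growth, migration and permeability, while VEGFR1 binds VEGF-A tightly, signals weakly and also exists as a soluble decoy. Placental growth factor (Pgf) and VEGF-B bind VEGFR1, VEGF-C binds VEGFR3 (Flt4) and, once fully processed, VEGFR2, and the neuropilins are co-receptors shared by VEGFs and class 3 semaphorins. In the brain, VEGF-A from neural cells draws vessels inward from the surface, and the forebrain vessel network still grows by sprouting in the first postnatal weeks.

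The design asks how microvessel transcripts differ between P5 and adult, P10 and adult, and P5 and P10. All ratios are log2 values of the younger over the older age, so that a negative value is a lower signal at the younger age, and a value is called when limma's p-value, adjusted by Benjamini-Hochberg over 27089 probes, is under 0.05. Against adults, 9 of the 12 probes were called at P5, 3 higher and 6 lower, where 52.1% of all probes tested were called, 28.1% higher and 24% lower. At P10, 3 of the 12 were called against adults, 2 higher and 1 lower, where the shares of all probes were 17.2%, 8.15% and 9.05%. Between P5 and P10, 8 of the 12 were called, 2 higher and 6 lower at P5, where 40.2% of all probes were called, 21.5% higher and 18.7% lower. With median centring in place of loess, 39.1% of the called probes were higher at P5 than at P10 rather than 53.4%, and the members' split was 1 higher and 7 lower. The median over the 12 probes was -0.21 for P5 against adult, 0.09 for P10 against adult and -0.38 for P5 against P10, beside 0.06, 0.00 and 0.03 for all probes tested. The 3 comparisons share samples, so their values are not independent.

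**Figure D1:**
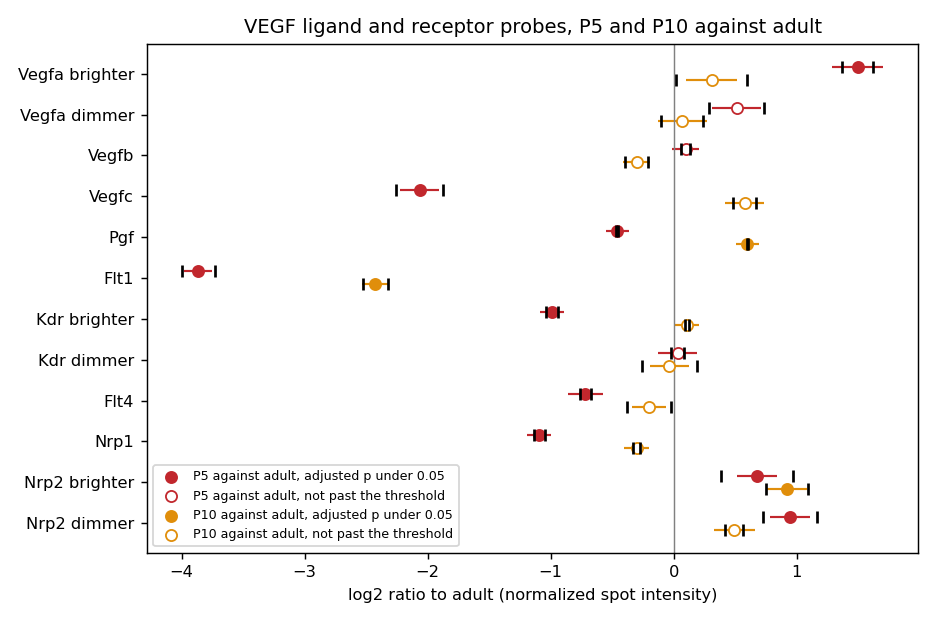
Log2 ratio to adult (x axis) of each of the 12 probes at P5 (red) and P10 (orange); circles are means of 2 replicates, filled where the limma adjusted p is under 0.05, coloured bars are ± 1 SE and black ticks are the replicates. Flt1 lies lowest at both ages (replicates -4.00 and -3.73 at P5, -2.53 and -2.32 at P10), Vegfc is low at P5 only, and the brighter Vegfa probe lies highest at P5 (1.62 and 1.37).

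The sequences just upstream of Flt1, Kdr and Vegfa are shown because, on Flt1's probe and the brighter probes of Kdr and Vegfa, the receptors were lower and their shared ligand higher at P5 than in adults; the dimmer Kdr and Vegfa probes were not called. They are the 250 bases before the RefSeq start of each gene (GRCm38.p6), read 5′ to 3′ on the gene's strand. Capitals mark hypoxia response cores (ACGTG or GCGTG) and ETS cores (CCGGAA or AGGAA) on either strand; CCGGAA and AGGAA do not contain each other but can overlap.
Flt1, chr5:147726012-147726261, minus strand: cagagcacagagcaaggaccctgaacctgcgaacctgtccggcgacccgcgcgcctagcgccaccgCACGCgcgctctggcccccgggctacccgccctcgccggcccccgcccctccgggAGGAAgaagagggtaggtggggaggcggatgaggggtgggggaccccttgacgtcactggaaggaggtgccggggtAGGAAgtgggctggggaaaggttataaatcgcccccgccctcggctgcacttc
Kdr, chr5:75978456-75978705, minus strand: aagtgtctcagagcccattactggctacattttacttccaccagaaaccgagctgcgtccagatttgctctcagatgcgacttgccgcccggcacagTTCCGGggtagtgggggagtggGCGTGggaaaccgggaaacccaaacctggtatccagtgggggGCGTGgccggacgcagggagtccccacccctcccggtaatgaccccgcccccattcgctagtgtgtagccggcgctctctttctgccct
Vegfa, first start, chr17:46032378-46032627, minus strand: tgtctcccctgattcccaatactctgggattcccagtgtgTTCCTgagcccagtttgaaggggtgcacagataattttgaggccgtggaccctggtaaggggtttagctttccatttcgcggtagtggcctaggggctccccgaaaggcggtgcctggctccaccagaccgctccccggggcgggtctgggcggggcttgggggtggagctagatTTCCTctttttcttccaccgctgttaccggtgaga
The Flt1 window held 1 GCGTG match, 184 bases before the start, and 2 AGGAA matches at 129 and 53 bases. The Kdr window held 2 GCGTG matches, at 131 and 89 bases, and 1 CCGGAA match at 153 bases. The Vegfa window held 2 AGGAA matches, at 210 and 35 bases, and neither hypoxia core. The window of a second Vegfa start (chr17:46025164-46025413) held 1 of each hypoxia core. That window lies downstream of the first start on the minus strand, so its matches lie inside the gene and not upstream of it. Over 32851 RefSeq promoter windows of the same length, 28.2% held GCGTG, 16.6% held ACGTG, 60.3% held AGGAA and 12% held CCGGAA. A match describes letters only and is no evidence of binding.

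Flt1 encodes VEGFR1. Its probe (A_51_P398723, accession NM_010228) had normalised log2 levels of 13.19 and 13.12 at P5, 14.72 and 14.43 at P10, and 17.30 and 16.79 in adults. The ages ran P5, P10, adult with no overlap, and each step exceeded the gap between replicates. Flt1 was 14.6-fold lower at P5 than in adults (log2 ratio -3.86 ± 0.11 SE, n = 2, limma adjusted p = 0.000459) and 5.37-fold lower at P10 (-2.42, adjusted p = 0.00167). Among 27089 probes, only 9 had a lower ratio at P5 against adults, and Flt1 ranked 24 from the lowest at P10. Between P5 and P10 the log2 ratio was -1.44 (adjusted p = 0.00381), the difference of a 2.71-fold lower level at P5. That last value varied with the route of measurement: the arrays that held P5 and P10 together gave -1.89 and -1.71, while the P5/adult ratio less the P10/adult ratio gave -0.91 and -1.06. This gap, -0.98 and -0.66, was larger than that of any other member probe, and no Flt1 spot was marked as saturated. The same gap bears on the P5 ratio to adults. The P5/adult arrays themselves gave -3.67 and -3.57, both less negative than the fitted -3.86. Across 11 alternatives that ratio ranged from -4.55 to -3.09, and it was called under all 11. With median centring the Flt1 ratio of P5 to P10 was -2.39, and with the background correction fitted on every spot, including 11 on 2 arrays whose recorded local background lay far above their signal, the call was lost (-1.41, adjusted p = 0.0604).

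Kdr encodes VEGFR2, and its 2 probes disagreed. The brighter probe (A_51_P316553), printed as 10 spots per array, read 13.10 and 13.07 at P5, 14.25 and 14.21 at P10, and 14.17 and 14.10 in adults. P5 lay about 1 log2 unit below both older ages, and P10 and adult levels were close together, with P10 the higher in both replicates. This probe was lower at P5 than in adults (-0.99 ± 0.10 SE, n = 2, limma adjusted p = 0.00189) and lower than at P10 (-1.10, adjusted p = 0.00443), and P10 against adults was 0.11 (adjusted p = 0.518). The SD among its 10 spots ranged from 0.0138 to 0.134 per array. The dimmer Kdr probe (A_55_P2094469, of the same accession NM_010612, printed once per array) read 12.84 and 12.04 at P5, 12.43 and 12.24 at P10, and 12.63 and 12.04 in adults. All 3 ages overlapped on that probe, and its ratios were 0.03, -0.03 and 0.07 (adjusted p = 0.875, 0.923 and 0.753). Its estimated dye bias was the largest among the members in replicate 1 (-0.45), and on the P5/adult arrays themselves it read -0.61 and -0.16. The direction of the dimmer probe against adults therefore depended on the dye correction: without it, its P5 ratio to adults was -0.26. With median centring the same ratio was -0.62 (adjusted p = 0.0346), and the ratio of the brighter probe was -1.65. Why the probes differ was not tested.

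Flt4 encodes VEGFR3, the main VEGF-C receptor, which in vessels marks lymphatic endothelium and sprouting blood endothelium. Its probe (A_51_P179531) was dim, at 6.81 and 6.72 at P5, 7.70 and 7.11 at P10, and 7.74 and 7.52 in adults. P5 lay below both other ages, whereas P10 and adults overlapped. Flt4 was lower at P5 than in adults (-0.72 ± 0.14 SE, n = 2, limma adjusted p = 0.012), and P10 against adults was -0.20 (adjusted p = 0.411). Its ratio of P5 to P10 was -0.52 (adjusted p = 0.0392), with -0.74 in replicate 1 and -0.29 in replicate 2, so that leaving out replicate 1 moved it to -0.29. That call was kept under 6 of 11 alternatives. The deposited log ratios gave larger Flt4 differences of -1.34 for P5 against adult and -0.96 for P5 against P10.

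**Figure D2:**
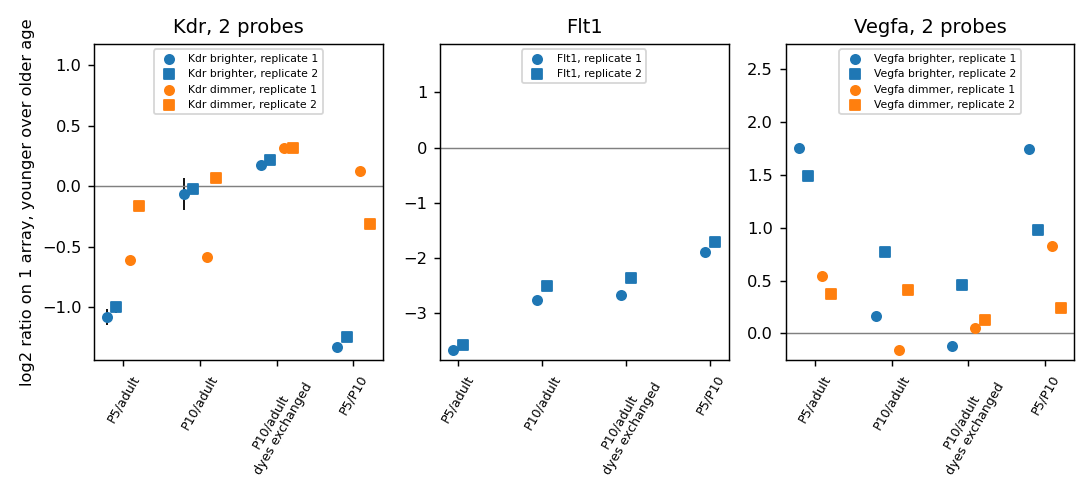
Log2 ratio of the younger over the older age on each single array for the Kdr, Flt1 and Vegfa probes, by array type (x axis) and replicate; the vertical scales differ between panels, and bars on the brighter Kdr probe are the SD over its 10 spots. The brighter Kdr probe and Flt1 give close values in both replicates, the dimmer Kdr probe lies on both sides of 0 on the P10/adult and P5/P10 arrays, and the brighter Vegfa probe varies more between replicates on the arrays that hold P10 than on the P5/adult arrays.

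Nrp1 and Nrp2, the co-receptors, went in opposite directions at P5 against adults. Nrp1, which forms complexes with VEGFR2 on blood endothelium, read 8.21 and 8.32 at P5, 9.12 and 9.03 at P10, and 9.52 and 9.41 in adults on its probe A_51_P469285. The levels were ordered P5, P10, adult without overlap. Nrp1 was lower at P5 than in adults (-1.09 ± 0.10 SE, n = 2, limma adjusted p = 0.00158) and lower than at P10 (-0.79, adjusted p = 0.00759), and P10 against adults, at -0.30, did not pass (adjusted p = 0.109).

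Nrp2 pairs with VEGFR3 in lymphatic and venous endothelium and is also made by neurons and mesenchymal cells. Its brighter probe (A_52_P93910, accession NM_001077403) read 12.31 and 11.99 at P5, 12.51 and 12.42 at P10, and 11.58 and 11.68 in adults. Its dimmer probe (A_65_P15245, accession NM_001077406) read 9.98 and 9.63 at P5, 9.20 and 9.46 at P10, and 8.78 and 8.88 in adults. Adults were lowest on both probes, but the brighter probe was highest at P10 and the dimmer at P5. At P5 both were higher than in adults, by 0.68 ± 0.16 SE (n = 2, limma adjusted p = 0.0208) and 0.95 ± 0.16 SE (adjusted p = 0.0086). At P10 the brighter probe was higher than in adults (0.92, adjusted p = 0.0234) and the dimmer probe, at 0.49, did not pass (adjusted p = 0.11). The brighter probe's P10 call was kept under 9 of 11 alternatives. It was lost with median centring and with the background correction fitted on every spot. Neither Nrp2 probe passed between P5 and P10 (-0.24 and 0.45, adjusted p = 0.277 and 0.0821). Under the alternatives the brighter probe's ratio of P5 to P10 ranged from -0.94 to -0.24 and was called under 1 of 11. The dimmer probe's ranged from 0.06 to 0.53 and was called under 1 of 10. The P5 value of the brighter probe was 0.97 in replicate 1 and 0.39 in replicate 2, and it was 0.03 (adjusted p = 0.93) with median centring. With median centring the dimmer probe's P5 value was 0.56.

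Vegfa encodes the main ligand of both Flt1 and Kdr. Its brighter probe (A_52_P638895, accession NM_001025250) read 11.57 and 11.44 at P5, 9.92 and 10.60 at P10, and 9.89 and 10.01 in adults. P5 was high in both replicates, adults were low in both, and P10 reached the adult level in replicate 1 but lay between in replicate 2. The probe was 2.82-fold higher at P5 than in adults (1.496 ± 0.21 SE, n = 2, limma adjusted p = 0.00472) and 2.28-fold higher than at P10 (1.19, adjusted p = 0.0147), with 1.599 in replicate 1 and 0.78 in replicate 2 for the latter. P10 against adults was 0.02 and 0.60 in the 2 replicates (0.31, adjusted p = 0.396). The dimmer probe (A_52_P249424, accession NM_001025257) read 8.995 and 8.68 at P5, 8.35 and 8.53 at P10, and 8.51 and 8.30 in adults. It was also highest at P5, but its ratios to adults and to P10, 0.51 and 0.44, did not pass (adjusted p = 0.085 and 0.137). With median centring the brighter probe's P5 values were 0.95 against adults and 0.64 against P10, both still called.

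Vegfb, a VEGFR1 ligand, moved little: its probe (A_52_P436628) read 9.68 and 9.53 at P5, 9.29 and 9.25 at P10, and 9.67 and 9.50 in adults. P5 and adults overlapped, and P10 was lowest. Vegfb was higher at P5 than at P10 (0.40 ± 0.11 SE, n = 2, limma adjusted p = 0.0422), a call kept under 6 of 11 alternatives and of the other sign with median centring (-0.04). Its ratios to adults were 0.10 at P5 and -0.30 at P10 (adjusted p = 0.49 and 0.14).

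Vegfc, the ligand of VEGFR3, read 10.00 and 9.77 at P5, 12.39 and 12.79 at P10, and 11.89 and 12.11 in adults on its probe A_51_P433870. P5 lay far below both older ages, and P10 was highest, with no overlap between ages. Vegfc was 4.18-fold lower at P5 than in adults (-2.06 ± 0.16 SE, n = 2, limma adjusted p = 0.00111) and 6.24-fold lower than at P10 (-2.64, adjusted p = 0.0035), where it ranked 10 from the lowest of 27089 probes. P10 against adults was 0.58 and did not pass (adjusted p = 0.0721). Both Vegfc calls at P5 were kept under all 11 alternatives that gave a test.

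Pgf, the other VEGFR1 ligand, showed the order of Vegfc at a dim signal (probe A_51_P318381). Its levels were 7.24 and 7.12 at P5, 8.46 and 8.29 at P10, and 7.78 and 7.68 in adults, with P10 highest and P5 lowest in both replicates. Pgf was the only ligand called in all 3 comparisons: it was lower at P5 than in adults (-0.46 ± 0.09 SE, n = 2, limma adjusted p = 0.0135), higher at P10 than in adults (0.60, adjusted p = 0.0176) and lower at P5 than at P10 (-1.06, adjusted p = 0.00445). The deposited log ratios gave -0.95 for P5 against adult and -1.71 for P5 against P10. Without the 2 arrays that held these faulty local backgrounds, P5 against adult was -0.70, and P10 against adult was no longer called (0.48, adjusted p = 0.139); it was lost as well with median centring (0.62, adjusted p = 0.121).

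**Figure D3:**
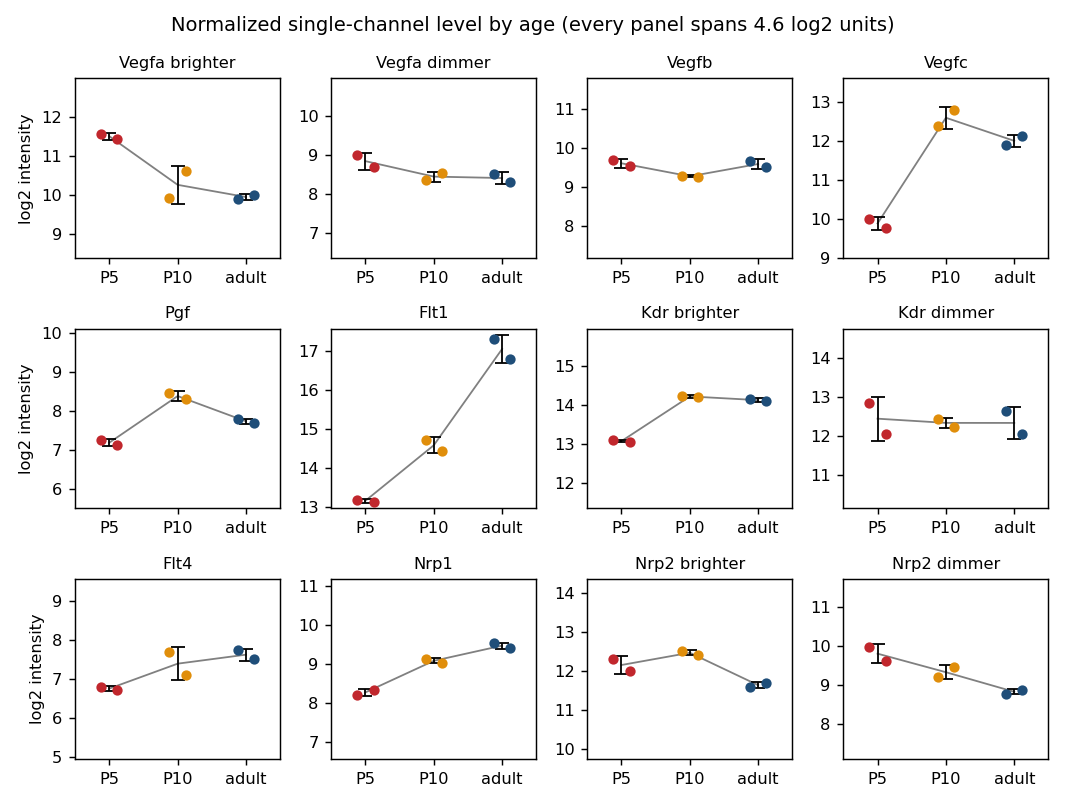
Normalised log2 intensity (y axis) of each of the 12 probes at P5, P10 and adult age; points are the 2 replicates, the line joins their means, bars are ± 1 SD, and every panel spans the same number of log2 units, so slopes but not heights can be compared between probes. Flt1 and Nrp1 are ordered P5, P10, adult; Vegfc, Pgf and the brighter Kdr probe are highest at P10, and the brighter Vegfa probe is highest at P5.

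The preparation held more than endothelium, and its makeup moved with age. In whole preparations such as these, fewer cells of a type and less RNA per cell cannot be told apart. All 16 brain endothelial markers examined were well above background at 1 or more ages. All 16 were lower at P5 than in adults (median -1.70, from -4.48 for Slco1a4 to -0.63 for Tie1), beside 27.7% of all genes tested. At P10, 9 were lower than in adults (median -0.60, and 5 with median centring), beside 11.2% of all genes. All 16 were lower at P5 than at P10 (median -1.25), beside 21.9%. With normexp fitted on every spot, 4 were called lower at P10 against adults and 1 at P5 against P10. Their summed linear level ranged over 111000 to 140000 at P5, 269000 to 291000 at P10 and 578000 to 629000 in adults, so Flt1, Flt4, Nrp1 and the brighter Kdr probe were lower at P5 where the endothelial markers were lower too. How much of each member's change follows the markers was not tested.

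Relative to the median of those markers, the members spread widely. Each distance was taken from the marker median within a replicate and then averaged over the replicates. It can therefore differ slightly from a distance to the medians given above. Flt1 lay 2.11 below the marker median at P5 against adults, where 2 of 16 markers were lower still, and 1.81 below it at P10, where none was. Between P5 and P10 Flt1 lay only 0.17 below the median, within the markers' own range. The brighter Kdr probe fell less than the median at P5 against adults (by 0.77 log2 units) and lay 0.17 above it between P5 and P10. Nrp1 and Flt4 lay 0.66 and 1.04 above the median at P5 against adults. Vegfc lay 0.31 below it there, 1.19 above it at P10 against adults, and 1.37 below it at P5 against P10, where no marker was lower. The brighter Vegfa probe and both Nrp2 probes lay above all 16 markers in each of the 3 comparisons. These are distances from a list's median and were not tested.

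**Figure D4:**
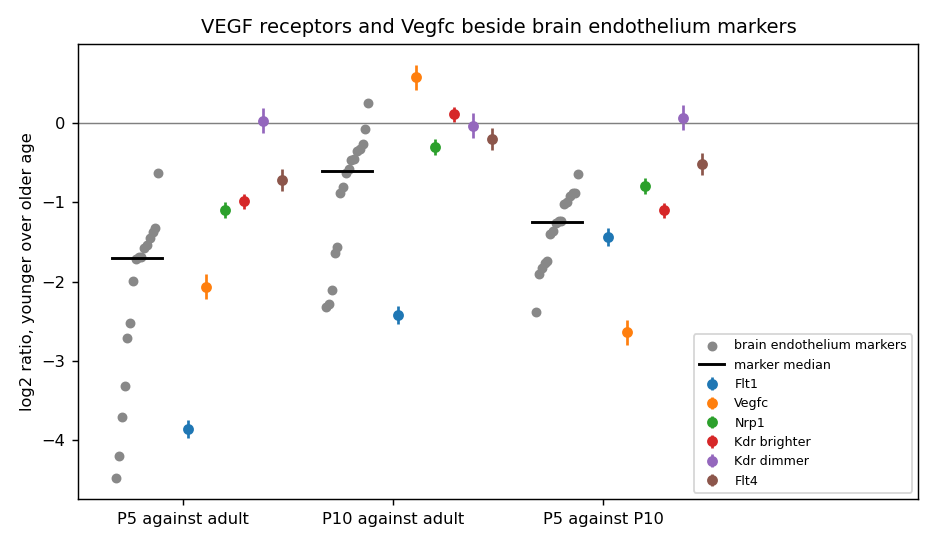
Log2 ratio of the younger over the older age (y axis) for 16 brain endothelial markers (grey points, with their median as a black line) and for the Flt1, Vegfc, Nrp1, Kdr and Flt4 probes (coloured points, means of 2 replicates ± 1 SE) in each comparison. Flt1 lies at the low end of the markers against adults, Vegfc lies below all of them at P5 against P10 and above all of them at P10 against adults, and the dimmer Kdr probe stays near 0.

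Markers of other cells moved too, beside members those cells can express. Of all genes tested, 27.1% were called higher and 27.7% lower at P5 relative to adults. The shares were 9.6% and 11.2% at P10 relative to adults, and 20.4% and 21.9% at P5 relative to P10. Of 12 immature neuron markers, 10 were higher at P5 and 8 at P10 than in adults (medians 1.89 and 0.89), with summed levels of 34800 to 40200 at P5, 22800 to 26500 at P10 and 10000 to 10700 in adults. Astrocytes are a known source of Vegfa: of 10 astrocyte markers, 3 were called higher and 3 lower at P5 relative to adults (median -0.18), beside 27.1% and 27.7% of all genes tested. With median centring the split was 1 higher and 5 lower. Their summed level was 39500 to 55300 at P5, 31200 to 49100 at P10 and 67800 to 76100 in adults. Of 8 choroid plexus and ependymal markers, 4 were called higher and 2 lower at P5 relative to adults, but with median centring 0 were higher, and 2 with the deposited log ratios. Their summed level was 158000 to 235000 at P5, 84100 to 147000 at P10 and 41300 to 74300 in adults. Of 8 fibroblast markers, 5 were higher and 2 lower at P5 relative to adults (median 0.85), against 2 higher with median centring; Vegfc and Pgf were lower there. Of the same 8, 5 were higher at P10 than in adults (median 1.25) and none lower, and 5 were lower at P5 than at P10. The fibroblast sum was 38500 to 54200 at P5, 77400 to 86600 at P10 and 33500 to 33800 in adults, which is highest at P10 as were Vegfc, Pgf and the brighter Nrp2 probe. Smooth muscle markers were lower at P5 than in adults in 6 of 7 cases (median -2.42), and pericyte markers in 9 of 11 (median -1.35). The smooth muscle sum was 12100 to 13500 at P5, 59600 to 90200 at P10 and 72400 to 83400 in adults, and the pericyte sum was 31100 to 36100, 67400 to 73100 and 105000 to 112000. For the lymphatic list, Lyve1, Pdpn and Mmrn1 were higher at P5 and at P10 than in adults, while Prox1, the defining lymphatic factor, was not well above background throughout any age. The summed level of Lyve1, Pdpn and Mmrn1 was 3030 to 4410 at P5, 3010 to 3810 at P10 and 1360 to 1460 in adults, whereas Flt4 was lower at P5. Prox1 has no part in that sum. Among the remaining lists, 7 of 7 red blood cell markers and 7 of 7 markers of dividing cells were higher at P5 than in adults (medians 4.92 and 3.01). There 3 of 8 microglial markers were higher, not far from the 27.1% of all genes. Of 10 oligodendrocyte markers, 7 were lower and 1 higher, and 5 of 9 mature neuron markers were lower. The microglial median was 0.08 in replicate 1 and 1.19 in replicate 2. The oligodendrocyte sum was 65100 to 87300 at P5, 16300 to 43800 at P10 and 67200 to 68600 in adults, so P5 and adults overlapped. The part of these cells in the members' values was not tested.

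The genes most like each member were taken from 15576 other genes by the smallest Euclidean distance over 4 values, the P5 and P10 ratios to adults in both replicates. Nearest to Flt1 were Ly6a at a distance of 0.37, Ly6c1 at 0.51 and Dusp1 at 0.55, of which the first and second are among the 16 endothelial markers. Vegfc had few close neighbours: its nearest, C1qtnf7, lay 0.64 away, followed by Nrip2 at 0.65 and Entpd1 at 0.66. Nrp2 lay nearest to Slc13a4 (0.14), Bmp7 (0.18) and Tram2 (0.21). Vegfa lay nearest to Wsb1 (0.17), Rbm28 (0.19) and Etfbkmt (0.20), and Kdr to Amigo2 (0.12), Klf10 and Fam114a1. Of the other members, Vegfb lay nearest to Dcaf1, Jmjd1c and Rictor, Pgf to Lpp, Tcf7l1 and Parm1, Flt4 to Cops8, Eif2b3 and Nbas, and Nrp1 to Trmt2b, Fbxl8 and Rap1b.

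The list of 35 VEGF signalling genes held mostly genes that act downstream of the receptors, but also the ligand gene Vegfd. Of the 35, 22 were lower and 4 higher at P5 than in adults (median -0.57), Vegfd among the lower. Of all genes tested, 54.7% were called there, 27.7% lower and 27.1% higher. At P10, 7 were lower and 1 higher than in adults (median -0.18), where 20.8% of genes were called, 11.2% lower and 9.6% higher. Between P5 and P10, 13 were lower and 2 higher at P5 (median -0.27), where 42.4% were called, 21.9% lower and 20.4% higher. The small heat shock protein gene Hspb1 was lowest against adults, at -1.996 at P5 and -1.90 at P10, the calcineurin subunit gene Ppp3ca was -1.05 at P10, and the adaptor gene Nck1 was -1.57 at P5. The endothelial nitric oxide synthase gene Nos3 was lowest between P5 and P10 (-1.24). The kinase gene Fyn was the 1 gene higher at P10 than in adults (0.53), and the kinase gene Prkca (0.52) and the calcineurin subunit gene Ppp3cb (0.35) were the 2 higher at P5 than at P10. With median centring the values of Prkca and of Ppp3cb, which was 0.43 at P5 against adults, changed sign.

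Partners that hold or route the receptors were mixed. Of 26 genes, 11 were lower and 5 higher at P5 than in adults, beside 27.7% and 27.1% of all genes tested. At P10, 2 were lower and 3 higher than in adults, beside 11.2% and 9.6% of all genes. Between P5 and P10, 10 were lower and 4 higher at P5, beside 21.9% and 20.4%. The list's medians were -0.07, 0.01 and -0.29 in that order. The lowest at P5 against adults were Ptprb, the endothelial phosphatase that acts on VEGFR2 and Tie2 (-2.97), and Cdh5, the VE-cadherin of endothelial junctions (-1.32). The highest were the glypican gene Gpc1 (2.20) and Mcam, which binds VEGFR2 (1.43). At P10 against adults Ptprb was -0.99 and the endocytic adaptor gene Epn2 was -0.76, while Dab2, also an endocytic adaptor, was 0.96 and Plxnd1 0.83.

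The 12 class 3 semaphorins and plexins, most of which share the neuropilins with VEGFs, gave 6 rises and 2 falls at P5 relative to adults (median 0.50). The matching shares of all genes were 27.1% and 27.7%. This excess of rises came from the plexins, since no plexin was called lower there and the semaphorins were called higher as often as lower. At P10, 3 were higher and 2 lower than in adults, beside 9.6% and 11.2% of all genes. The P5 against P10 comparison gave 4 rises and 2 falls at P5, beside 20.4% and 21.9%. The ligand genes Sema3c and Sema3g were the lowest at P5, at -3.80 and -1.83 against adults, and Sema3c was -3.10 at P10. The receptor genes Plxna3 and Plxna4 were highest at P5, at 3.47 and 1.33 against adults and 2.57 and 1.14 against P10.

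Of 20 tested genes known to be induced by VEGF in endothelium, 14 were lower and 5 higher at P5 than in adults (median -0.98). The shares of all genes there were 27.7% and 27.1%. At P10, 9 were lower and 5 higher than in adults (median -0.24), beside 11.2% and 9.6% of all genes. Between P5 and P10, 14 were lower and 2 higher at P5 (median -0.66), beside 21.9% and 20.4%. The immediate early genes Dusp1 and Nr4a1 were lowest, at -3.57 and -2.89 at P5 and -2.35 and -2.24 at P10 against adults. The sprout gene Apln was the highest against adults, at 1.94 at P5 and 2.60 at P10, followed by Vash1 (1.65) at P5 and Adamts9 (2.03) at P10. Between P5 and P10 the lowest were Klf4 (-1.40) and Angpt2 (-1.29), which encodes a Tie2 ligand of remodelling vessels. Egr3 and Stc1 were not tested, since no probe was well above background throughout an age.

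Hypoxia drives Vegfa and Flt1 transcription through HIF factors. Among 25 tested hypoxia and HIF genes, 13 were lower and 6 higher at P5 than in adults (median -0.53), beside 27.7% and 27.1% of all genes. At P10, 7 were lower and 1 higher than in adults, beside 11.2% and 9.6% of all genes. Between P5 and P10, 9 were lower and 5 higher at P5, beside 21.9% and 20.4%. Ndrg1 (-4.14) and Slc2a1, the glucose transporter of brain endothelium (-3.32), were lowest at P5 against adults, and the same genes were lowest at P10 (-3.47 and -1.56). Hif3a was the highest in both (1.52 and 1.66), with the glycolytic regulator gene Pfkfb4 at 1.13 at P5. Epas1, which encodes HIF-2α, was lowest between P5 and P10 (-2.20). Slc2a1 is also 1 of the 16 endothelial markers, as is Cdh5 of the partner list, so the lists are not independent. Nos3 is counted in both the VEGF signalling list and the list of VEGF-induced genes. Plxna1 and Plxnd1 are counted both among the partners and among the semaphorins and plexins.

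Around Vegfc, the 10 tested genes of VEGF-C processing and lymphatic vessels gave 4 rises and 3 falls at P5 relative to adults, beside 27.1% and 27.7% of all genes. At P10 relative to adults they gave 5 rises and 1 fall, beside 9.6% and 11.2% of all genes. Between P5 and P10, 2 were higher and 5 lower at P5, beside 20.4% and 21.9%. The list's medians were 0.25, 0.44 and -0.43 in that order. Vegfd, the ligand closest to Vegfc, was lower at both ages than in adults (-0.96 and -0.67). Vegfd is also counted in the VEGF signalling list above, and Lyve1 and Pdpn in the lymphatic marker list, so these lists overlap. The convertase gene Pcsk5 was higher at P10 than in adults (1.59) and lower at P5 than at P10 (-1.47), the direction of Vegfc between those ages. Ccbe1 and Adamts3, whose products activate VEGF-C, were higher at P5 than at P10 (0.76 and 0.52), the opposite direction to Vegfc, and Ccbe1 was 1.06 above adults at P5.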

How the data were processed

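Total RNA of forebrain microvessels was measured on 8 two-colour arrays in 2 replicates; the replicate number equals the slide. The deposited files hold, per the file headers, spot intensity on a linear scale (median, local background and processed signals). They also hold a log10 ratio of Cy5 to Cy3, per the file headers. The headers name Agilent Feature Extraction 10.5.1.1, and the submitters' processing notes name 12.6. Gene names came from accessions matched to RefSeq (GRCm38.p6), which named 27427 of 39429 probes; the probe design is on mm9, so no probe position is given.

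In R 4.3.3 with limma 3.58.1, median signals were background-corrected by normexp (offset 50). On 2 arrays, 11 spots lay over 100 below their local background; these were corrected with the median background of their array and then dropped. Loess (span 0.3) followed, with control and outlier spots at weight 0, and outlier spots were left out. Spots of a probe were averaged. A probe was kept if Feature Extraction marked it well above background in all channels of any 1 age (27170, of which 27089 could be fitted); 65.2% to 73.3% of spots per channel were well above background. The 4 ratios of a slide gave, by least squares, P5 and P10 differences from adult and a dye term. limma fitted age with the replicate as a block (2 residual and 3.05 prior degrees of freedom). Levels are single-channel values after Aquantile scaling. The numbers pair the samples because they share a slide; deviations of levels correlated at 0.448, 0.475 and 0.685. Replicate ratios correlated across probes at 0.9, 0.814 and 0.796, and dye-exchanged arrays at -0.882 and -0.915.

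Named genes are all members, the 3 genes nearest each member, and from each list up to 2 called genes at each end, each gene by its brightest probe, and 1 gene under this rule is not reported here. Gene lists and members were chosen with earlier results of these data known. The fit was checked on simulated data. The number of arrays limits the precision.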

Additional observations from a re-analysis of the deposited data

How the results depend on the processing

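Across 11 alternatives with a test, 340 of 387 member values kept direction and side of the threshold, 23 lost the call, 8 gained it and 16 changed sign. The member probes called for P10 against adult were 7 with the 8 arrays fitted directly and the slide as a random block, and 1 both with median centring and with normexp fitted on every spot, against 3; for P5 against P10 that last fit left 1 of 8. All probes called changed likewise: for P10 against adult from 4659 to 12321 with the slide as a random block, 1468 with median centring, 270 with normexp on every spot, 2038 with single-channel levels and 2259 without the 2 arrays with faulty backgrounds; for P5 against adult from 14117 to 6412 with normexp on every spot; for P5 against P10 from 10881 to 33, 6295 and 6722 with normexp on every spot, single-channel levels and without those 2 arrays. Median centring moved the median of all probes from 0.06 to -0.09 for P5 against adult and from 0.03 to -0.12 for P5 against P10.

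Most sign changes fell on the dimmer Kdr probe. Its P5 against adult value was -0.010 with deposited log ratios, -0.62 with median centring, -0.26 with no dye term, -0.10 with normexp on every spot and -0.40 without the 2 arrays; its P5 against P10 value was -0.0045, -0.64, -0.22, -0.036 and -0.13 in the same order. Its P10 against adult value was 0.022 with median centring and 0.001 with single-channel levels. With median centring Vegfb read -0.34 for P5 against adult and -0.041 for P5 against P10, Ppp3cb -0.19 and -0.29, and Prkca -0.018 for P5 against P10. Without the 2 arrays Vegfb read -0.078 for P5 against adult and the dimmer Vegfa probe -0.009 for P10 against adult. The cause was not tested.

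Single-channel levels with no replicate block called 9, 3 and 6 member probes for P5 against adult, P10 against adult and P5 against P10, against 9, 3 and 8 with the block. Of 1254 counts of list genes under alternatives, 208 moved by over 1.5 times or changed to or from none. Leaving out a replicate leaves no test, and those values are the single replicates given above. The dim probes of Pgf and Flt4 read larger ratios at P5 in the deposited values than with offset 50. The alternatives were planned with earlier results known.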
